A study of Bos taurus with 6 samples.

Results

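The cluster of miR-424, miR-503, miR-542 and miR-450 is a group of miRNA precursors that lie next to each other on the X chromosome. All mature bovine miRNA names of miR-424, miR-503, miR-542 and miR-450 were taken, with any letter or arm suffix, which gave 7 of the 755 mature names counted in each library. They are bta-miR-424-5p, bta-miR-424-3p, bta-miR-503-5p, bta-miR-503-3p, bta-miR-542-5p, bta-miR-450a and bta-miR-450b, and they come from 6 precursors. Small RNA was sequenced from granulosa cells of Simmental heifers whose oestrus had been synchronized with a prostaglandin analogue and a GnRH analogue, and which were slaughtered on day 19 of the cycle. The follicles were sorted by surface diameter into preovulatory dominant follicles and anovulatory subordinate follicles, with 3 libraries for each kind. Both kinds came from the same animals. Dominant follicles were far fewer, and RNA was pooled into the libraries, so the spread and the p-values given here describe pools of follicles. How many follicles or animals each pool holds is not given in the sources used here.

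A miRNA gene is transcribed as a long primary RNA, cut to a hairpin precursor and then to a short duplex, whose 5p and 3p strands can each be loaded into the silencing complex. Precursors that lie close together are often cut from a shared transcript, so their mature products can change together, although cutting, strand choice and decay differ from one product to another. Target choice rests mainly on the seed, a short stretch near the 5′ end. MiR-424-5p, known as miR-322 in rodents, carries the seed of the miR-15/16 family, and the seed of miR-503-5p is closely related. This family is known for repressing cyclins and other drivers of the cell cycle. In the follicle, granulosa cells divide rapidly during growth and leave the cell cycle as they luteinize after the LH surge.

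In the RefSeq annotation of the ARS-UCD2.0 assembly, the order by start position was MIR450B, MIR450A-1, MIR450A-2, MIR542, MIR503 and MIR424. The files were made with another assembly, so only the order was used. RefSeq places 1 further miRNA gene, MIR3601, between MIR542 and MIR503. Bta-miR-3601, looked at for its position after its counts were seen, had 0 reads in all 6 libraries. A count of 0 allows up to 3 reads, which is between 8.86 and 13.9 CPM (reads relative to the library total, scaled with edgeR's TMM factors) in these libraries. Bta-miR-450a is listed under 2 precursors, and its 2 rows differed by at most 2 reads in any library. Its reads can therefore not be assigned to one of the copies, and the larger row was used. The files name the arm for 5 of the 7 miRNAs but not for bta-miR-450a and bta-miR-450b, and bta-miR-542-3p is not analysed here.

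Counting each mature miRNA once, a dominant library had 190385 to 311842 reads and a subordinate one 306932 to 364125. All 7 cluster miRNAs passed the detection rule (at least 1 read in at least 2 libraries of a group) and were tested together with all other detected miRNAs, 353 in total. The median log2 fold change of all 353 was -0.20 with TMM factors and -0.01 with plain totals, and the split of calls moved from 42 higher and 34 lower to 47 higher and 23 lower. The log2 fold change of bta-miR-424-5p moved from 2.53 to 2.74 and that of bta-miR-450b from 1.35 to 1.54. Relative to the median of all miRNAs they were 2.73 and 2.75, and 1.55 and 1.55. A change of scaling shifts all miRNAs by nearly the same amount, so these relative values could hardly differ.

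Of the 7 cluster miRNAs, 5 rose in dominant follicles and none fell. Over all miRNAs tested, 11.9% were called higher and 9.63% lower (edgeR's quasi-likelihood test, called at a log2 fold change of 1 or more in size, a p of 0.05 or less and a Benjamini-Hochberg FDR of 0.1 or less). The 5 that rose were both arms of miR-424, bta-miR-542-5p, bta-miR-450a and bta-miR-450b, with folds between 2.55 and 6.55. Both arms of miR-503 had few reads and were not called. The median log2 fold change of the 7 was 1.80, and all 7 values were above 0, as were 163 of the 353. In the 5 that rose, every dominant library lay above every subordinate library, which held for 18.4% of all miRNAs tested. In bulk RNA a larger amount per cell cannot be told apart from a larger part of the cells that express a miRNA.

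**Figure D1:**
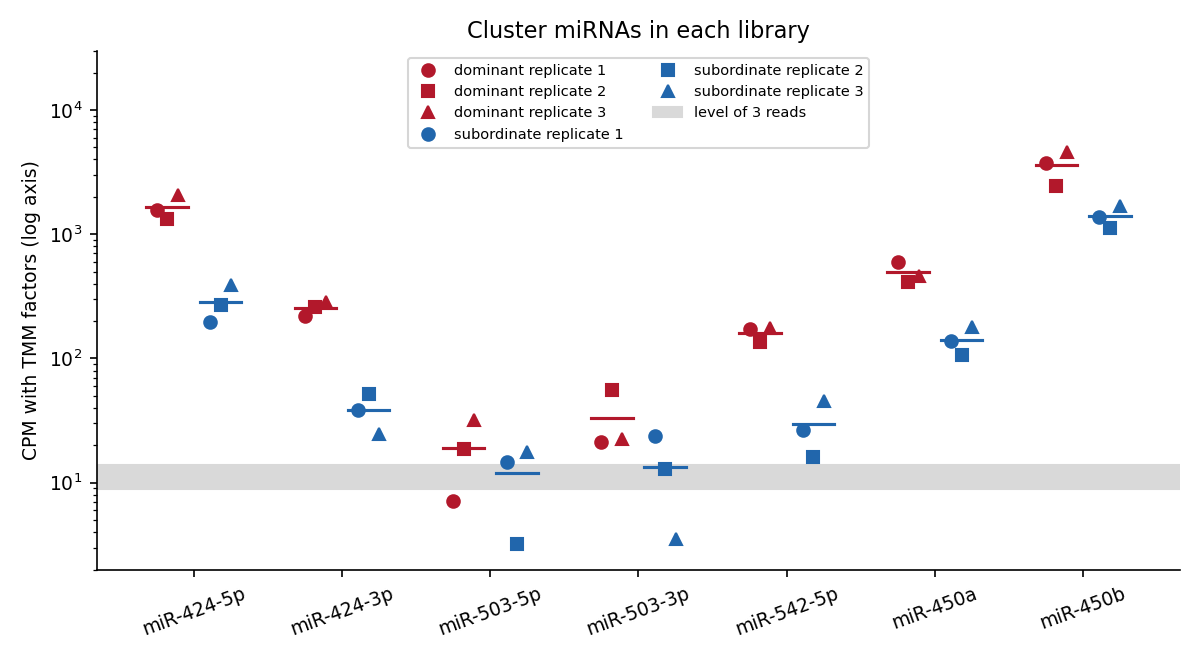
CPM with TMM factors (log axis) of the 7 cluster miRNAs in each of the 6 libraries, with lines at the group means and a grey band at the level of 3 reads. The dominant libraries lie above the subordinate ones for 5 miRNAs, while the groups overlap for both arms of miR-503, whose points lie near the band.

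MiR-424 is the member with the best known role, the repression of cell cycle genes by its 5p arm. Bta-miR-424-5p had 442, 288 and 649 reads in the dominant libraries and 66, 84 and 111 in the subordinate ones. After scaling, the dominant libraries were at 1560, 1336 and 2066 CPM, and the subordinate libraries reached at most 392 CPM. The lowest dominant library was 3.41 times the highest subordinate library. The means were 1654 ± 374 and 286 ± 99.2 CPM (SD, n = 3 each), a log2 fold change of 2.53 (SE 0.30; edgeR, adjusted p = 0.00050). It moved from rank 112 to rank 55 among all miRNAs by mean CPM.

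The 3p arm of miR-424, the strand usually present in smaller amounts, rose as well. It had 62, 56 and 89 reads in dominant follicles and 13, 16 and 7 in subordinate follicles. The means were 254 ± 32.7 and 38.3 ± 13.5 CPM (SD, n = 3 each), with a log2 fold change of 2.71 (SE 0.34; edgeR, adjusted p = 0.000577). Its gap between the groups was the widest of the 7, the lowest dominant library being 4.23 times the highest subordinate one.

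The proportion of the miR-424 arms was compared within libraries. Per library, the log2 ratio of 5p to 3p reads (1 read added to each) was 2.81, 2.34 and 2.85 in dominant and 2.26, 2.32 and 3.81 in subordinate follicles. The means were 2.67 ± 0.28 and 2.80 ± 0.88 (SD, n = 3 each), and no difference was detectable (exact permutation test, two-sided, p = 1). Without subordinate replicate 3 the difference in means changed from -0.13 to 0.38, and without dominant replicate 2 to 0.037. Subordinate replicate 3 had the highest 5p count and the lowest 3p count of its group, and the 3p arm made up 7 of its 118 miR-424 reads or 5.93% (exact Clopper-Pearson 95% interval 2.42 to 11.8%). In the other 5 libraries the 3p arm made up between 12.1 and 16.5%, above the upper end of that interval. Their own intervals, such as 9.06 to 26.5% in subordinate replicate 1, overlapped it except in dominant replicate 2 (12.5 to 20.6%).

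MiR-503, whose 5p arm has a seed like that of miR-424-5p, was near the limit of detection. Bta-miR-503-5p had 2, 4 and 10 reads in dominant and 5, 1 and 5 in subordinate follicles, or 19.1 ± 12.4 against 11.9 ± 7.62 CPM (SD, n = 3 each). Its log2 fold change was 0.69 with a 95% interval from -0.99 to 2.37 (edgeR, adjusted p = 0.515). Bta-miR-503-3p had 6, 12 and 7 reads in dominant and 8, 4 and 1 in subordinate follicles, with means of 33.0 ± 19.6 and 13.4 ± 10.1 CPM (SD, n = 3 each). The log2 fold change was 1.21 with an interval from -0.37 to 2.79 (edgeR, adjusted p = 0.249). The groups overlapped for both arms. The intervals hold folds as large as those of the other cluster miRNAs for bta-miR-503-3p, and they also hold no change. The 5p reads over the 3p reads gave a log2 ratio of -0.71 ± 1.02 in dominant and -0.11 ± 1.51 in subordinate follicles (SD, n = 3 each; exact permutation test, p = 0.6), and the difference of -0.61 became 0.24 without subordinate replicate 3.

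Bta-miR-542-5p, the product of a precursor between those of miR-450 and miR-503, had 49, 29 and 55 reads in dominant follicles. The subordinate libraries had 9, 5 and 13 reads. Scaled means were 161 ± 22.8 and 29.5 ± 15.1 CPM (SD, n = 3 each). The log2 fold change was 2.44 (SE 0.41; edgeR, adjusted p = 0.00352), close to that of bta-miR-424-5p. The lowest dominant library was 2.93 times the highest subordinate library.

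The miR-450 members rose by less. Bta-miR-450a had 170, 89 and 146 reads in dominant and 47, 33 and 51 in subordinate follicles, which gave 492 ± 96.5 and 142 ± 36.7 CPM (SD, n = 3 each). Its log2 fold change was 1.80 (SE 0.27; edgeR, adjusted p = 0.00206). Bta-miR-450b was the cluster miRNA with the most reads in every library, with 1057, 527 and 1435 in dominant and 470, 348 and 481 in subordinate follicles. Its means were 3581 ± 1070 and 1404 ± 286 CPM (SD, n = 3 each), a log2 fold change of 1.35 (SE 0.27; edgeR, adjusted p = 0.00791). The groups of bta-miR-450b came closest among the 5 called miRNAs, with the lowest dominant library at 1.44 times the highest subordinate one.

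Along the chromosome, the log2 fold changes were thus 1.35 for bta-miR-450b, 1.80 for bta-miR-450a, 2.44 for bta-miR-542-5p, 0.69 and 1.21 for the miR-503 arms and 2.53 and 2.71 for the miR-424 arms. The 95% intervals of all 7 overlapped, if barely for 0.74 to 1.96 of bta-miR-450b and 1.95 to 3.48 of bta-miR-424-3p. Among all 353 miRNAs ordered by log2 fold change, the 5 called miRNAs held ranks between 28 and 49.

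**Figure D2:**
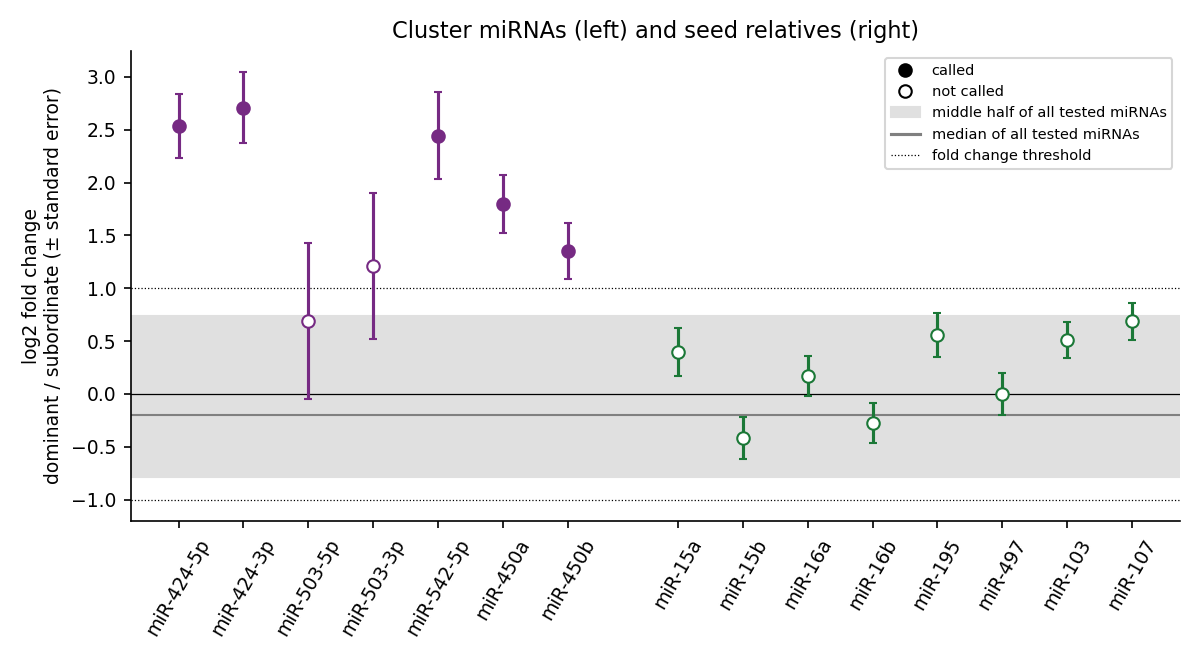
Log2 fold change of dominant over subordinate follicles with its standard error for the 7 cluster miRNAs and 8 seed relatives. Filled points passed the thresholds, the grey band runs from the lower to the upper quartile of all 353 tested miRNAs and the grey line is their median of -0.20. The 5 filled points are all cluster miRNAs, and the seed relatives lie between -0.42 and 0.69.

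Ratios between cluster miRNAs were taken within each library, with 1 read added to each count, so library scaling cancels while low counts feel the added read. Against bta-miR-450b, bta-miR-424-5p had a log2 ratio of reads of -1.26, -0.87 and -1.14 in dominant libraries. In subordinate libraries it was -2.81, -2.04 and -2.11. The difference in means was 1.23, a 2.34-fold larger ratio of bta-miR-424-5p to bta-miR-450b, and the groups did not overlap. Against bta-miR-450a, the ratio averaged 1.73 ± 0.39 in dominant and 0.97 ± 0.44 in subordinate follicles (SD, n = 3 each), again without overlap. Against bta-miR-542-5p, it averaged 3.32 ± 0.20 and 3.19 ± 0.56 (SD, n = 3 each), and the groups overlapped. Exact permutation tests gave p = 0.1, 0.1 and 0.8, or 0.15, 0.15 and 0.8 after Benjamini-Hochberg adjustment over the 3 ratios. With 3 libraries against 3 the smallest p is 0.1, so none of these could pass 0.05. Without subordinate replicate 1 the small difference against bta-miR-542-5p changed sign, from 0.13 to -0.095, and with 0.5 reads added it was 0.068.

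**Figure D3:**
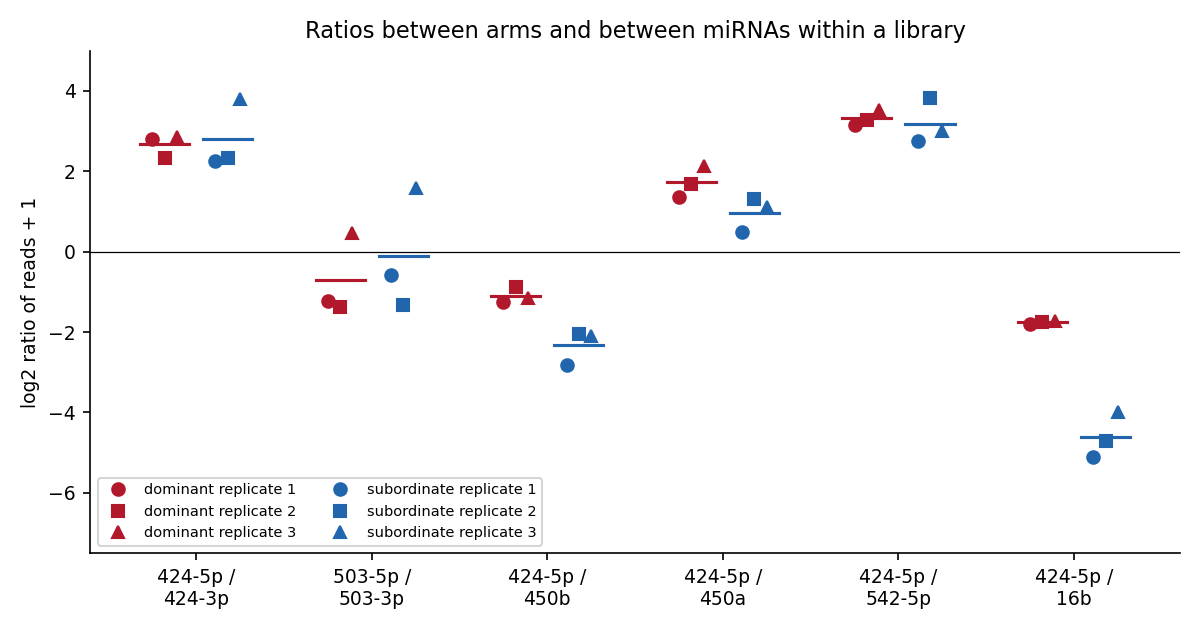
Log2 ratio of reads (1 added to each) between the arms of miR-424 and of miR-503, and between bta-miR-424-5p and 4 other miRNAs, in each library with lines at the group means. The groups separate for the ratios to bta-miR-450b, bta-miR-450a and bta-miR-16b, and overlap for both arm ratios and for bta-miR-542-5p.

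The make-up of the cluster's reads differed between the follicle types in the same way. Bta-miR-450b made up 57.2 ± 4.14% of them in dominant and 72.9 ± 2.74% in subordinate follicles (SD, n = 3 each). Bta-miR-424-5p made up 26.8 ± 1.99% and 14.8 ± 3.57%, respectively (SD, n = 3 each). For bta-miR-450a the shares were 8.16 ± 1.81% and 7.32 ± 0.52% (SD, n = 3 each). Together the 7 miRNAs took 0.661 ± 0.122% of all miRNA reads in dominant and 0.180 ± 0.042% in subordinate follicles (SD, n = 3 each). Shares of reads carry the unequal ligation of different small RNAs, so they compare the groups better than they compare the miRNAs.

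Within a group, the libraries deviated together for some cluster miRNAs and not for others. Dominant replicate 2 was the lowest dominant library for bta-miR-424-5p, bta-miR-542-5p, bta-miR-450a and bta-miR-450b, at -0.28, -0.24, -0.24 and -0.50 from the group mean of log2 CPM. Subordinate replicate 3 was the highest subordinate library for the same 4, at 0.51, 0.68, 0.37 and 0.29. The 3p arms lay below their group mean there, at -0.51 for bta-miR-424-3p and -1.06 for bta-miR-503-3p. These 2 values rest on only 7 reads and 1 read, so counting error is large. With 3 libraries in a group no correlation was computed.

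MiRNAs with a shared seed are held to act on overlapping targets, so bta-miR-424-5p was set beside its relatives bta-miR-15a, bta-miR-15b, bta-miR-16a, bta-miR-16b, bta-miR-195 and bta-miR-497. Bta-miR-103 and bta-miR-107, whose seed overlaps in part, were included. Of all miRNAs tested, 11.9% were called higher and 9.63% lower, and none of these 8 was called, a count near those shares. Their median log2 fold change was 0.29, between -0.42 for bta-miR-15b and 0.69 for bta-miR-107, and 6 of the 8 were above 0. For 4 of the 8, bta-miR-15a, bta-miR-195, bta-miR-103 and bta-miR-107, every dominant library lay above every subordinate library, against 18.4% of all tested. For bta-miR-15b every dominant library lay below. Bta-miR-107 (edgeR, adjusted p = 0.0294), bta-miR-103 (log2 fold change 0.51, adjusted p = 0.0608) and bta-miR-195 (log2 fold change 0.56, adjusted p = 0.0904) passed the FDR threshold but not the fold threshold. Bta-miR-16b, the relative with the most reads in 5 of 6 libraries, had 1530, 975 and 2141 reads in dominant and 2289, 2220 and 1783 in subordinate follicles.

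Against bta-miR-16b, the log2 ratio of bta-miR-424-5p was -1.79, -1.76 and -1.72 in dominant libraries and -5.10, -4.71 and -3.99 in subordinate libraries. The difference in means was 2.84, or 7.18-fold, with no overlap (exact permutation test, p = 0.1, the smallest possible). Bta-miR-424-5p was 10.6, 9.33 and 12.3% of the reads of the family (itself and the 6 relatives with the full seed) in dominant libraries. It was 1.44, 1.78 and 3.15% in subordinate libraries. The nearest libraries had exact 95% intervals, for counting error only, of 8.33 to 10.4% and of 2.60 to 3.79%. The mean shares were 10.7 ± 1.49% and 2.13 ± 0.91% (SD, n = 3 each; exact permutation test, p = 0.1).

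The relatives with the full seed were summed, leaving out bta-miR-103 and bta-miR-107. They reached 13646 ± 951 CPM in dominant and 13432 ± 1465 CPM in subordinate follicles (SD, n = 3 each), a difference smaller than the spread between libraries. With bta-miR-424-5p added, the sums were 15300 ± 1321 and 13718 ± 1413 CPM (SD, n = 3 each), and the groups still overlapped. Of the 7 miRNAs with the seed, bta-miR-424-5p was the one that was called, against 11.9% called higher and 9.63% lower over all tested.

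**Figure D4:**
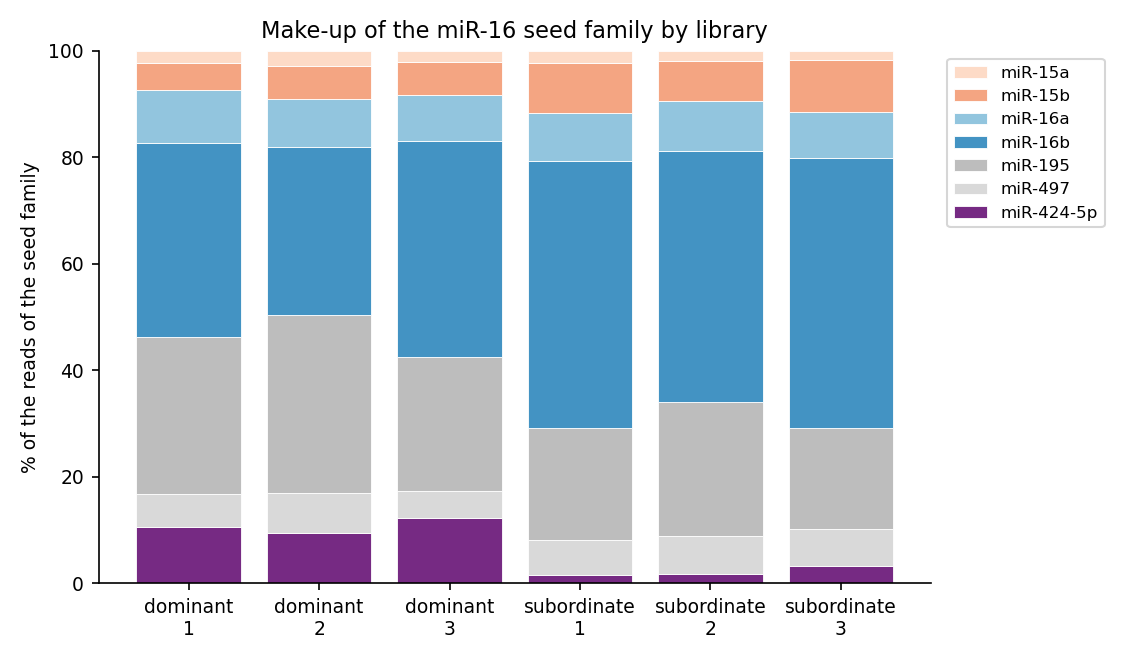
Percent of the reads of the miR-16 seed family (7 miRNAs, bars from 0 to 100%) taken by each miRNA in each library. Bta-miR-424-5p, at the bottom, takes between 9.33 and 12.3% in dominant libraries and between 1.44 and 3.15% in subordinate ones.

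Other miRNAs of the X chromosome did not share one direction. RefSeq gave a chromosome for 752 of the 766 precursors in the files, which placed 48 further mature miRNAs on X only, and 33 of these were tested. Of the 33, 3 were called higher and 5 lower, against 11.9% and 9.63% of all tested, and their median log2 fold change was -0.27. The 3 with the most reads were bta-miR-98, bta-miR-660 and bta-miR-6119-5p, with log2 fold changes of 0.63, -0.57 and -1.14. Only bta-miR-6119-5p of these passed the thresholds.

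The profile over the 6 libraries was compared among miRNAs by the root mean square difference of log2 CPM centred on each miRNA's own mean, a measure that holds the group difference itself. For bta-miR-424-5p, bta-miR-542-5p was at 0.35, bta-miR-450a at 0.51, bta-miR-424-3p at 0.54 and bta-miR-450b at 0.67. Outside the cluster, the nearest of 189 candidates, each averaging 10 reads or more, were bta-miR-32 (0.35), bta-miR-22-3p (0.40), bta-miR-873 (0.51), bta-miR-202 (0.52) and bta-miR-204 (0.53), all called higher. For bta-miR-450b, bta-miR-450a was at 0.33. Outside the cluster, bta-miR-221 (0.28), bta-miR-421 (0.29), bta-miR-2483-5p (0.39), bta-miR-345-3p (0.41) and bta-miR-324 (0.42) came nearest. Of these, bta-miR-221, bta-miR-421 and bta-miR-2483-5p are the 3 other X-linked miRNAs called higher, and bta-miR-324 was not called. Other X-linked miRNAs were 33 of the 353 tested, and their number among the 189 candidates was not counted. Why these profiles came near was not tested.

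MiRNAs of other cell types were summed per library, since follicle walls hold blood, endothelium and theca or other stroma beside granulosa cells. The files hold no mRNA markers, and bta-miR-202, a miRNA enriched in gonads, was at 43506 to 46747 CPM in dominant and 11575 to 15230 CPM in subordinate libraries. The 7 blood cell miRNAs (bta-miR-451, bta-miR-486, bta-miR-144, bta-miR-142-5p, bta-miR-142-3p, bta-miR-223 and bta-miR-150) summed to 14205, 8900 and 1305 CPM in dominant libraries and to between 1366 and 2029 CPM in subordinate ones. Of the 6 tested, bta-miR-451 and bta-miR-486, both of red blood cells, were called higher. The rest were not called, with log2 fold changes of 1.33 for bta-miR-144, 0.53 for bta-miR-142-5p, 0.08 for bta-miR-150 and -0.48 for bta-miR-223. Bta-miR-486 was the largest part of the sum in every library, with 10807 CPM in dominant replicate 1. No blood marker was at 0 in all libraries, and bta-miR-144 was at 0 in dominant replicate 3 and subordinate replicate 3. The untested bta-miR-142-3p had 1 read in dominant replicate 1, 1 read in subordinate replicate 1 and 0 elsewhere.

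Dominant replicate 3 had the lowest blood sum of the 6 libraries and the highest cluster sum, 7613 CPM, against 6309 and 4661 CPM in the other dominant libraries. In subordinate libraries the cluster sum was 1825, 1588 and 2361 CPM. With dominant replicate 3 as the only dominant library, a setting chosen after the data were seen, the log2 fold changes of the 5 miRNAs ran from 1.76 for bta-miR-450b to 2.94 for bta-miR-424-3p. The spread in that fit comes from the subordinate libraries alone, so only its values are given. The 2 endothelial miRNAs, bta-miR-126-5p and bta-miR-126-3p, summed to 73.2 to 293 CPM in dominant and 354 to 540 CPM in subordinate libraries, and neither was called. The 5 stromal miRNAs (bta-miR-143, bta-miR-145, bta-miR-199a-5p, bta-miR-199a-3p and bta-miR-214) ranged from 17601 to 27821 and from 21063 to 35748 CPM, with only bta-miR-214 called, as lower. None of these endothelial or stromal markers was at 0 in any library. The part of the blood, endothelial and stromal markers in the results was not tested.

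**Figure D5:**
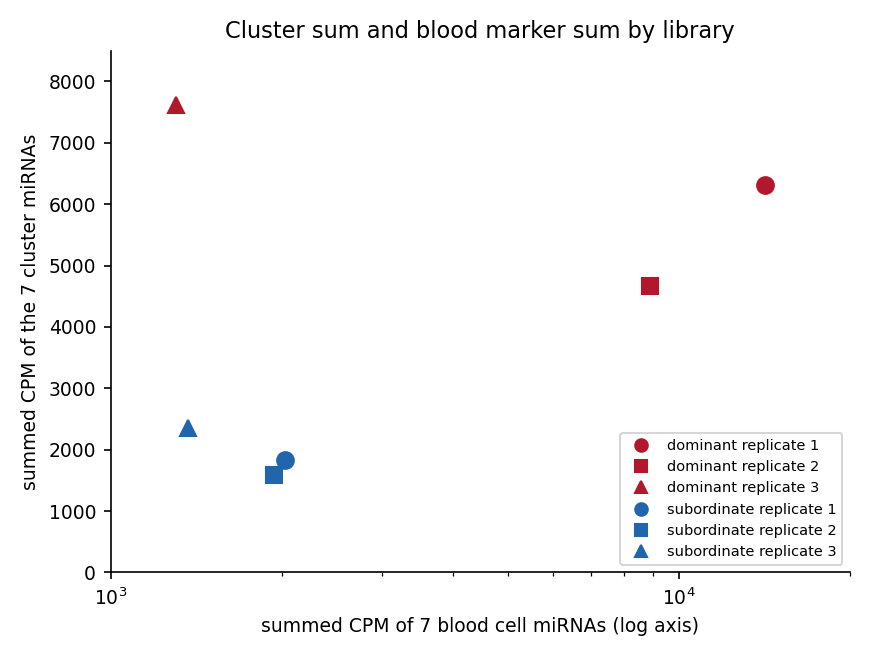
Summed CPM of the 7 cluster miRNAs against the summed CPM of 7 blood cell miRNAs (log axis), 1 point per library. Dominant replicate 3 has a blood sum of 1305 CPM, as low as the subordinate libraries, and the highest cluster sum of 7613 CPM.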

How the data were processed

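Granulosa cell small RNA of 3 preovulatory dominant and 3 subordinate follicle libraries was analysed, grouped by the follicle type in the labels. The deposited values are raw read counts. Before deposit, adapters were trimmed and short or low-quality reads dropped by the authors (Cutadapt, Seqtk). They mapped with Bowtie to the bovine genome (UMD 3.1 in the submitters' processing notes) and counted known miRBase miRNAs with miRDeep2. A mature miRNA appears once per precursor, 906 rows for 755 names, and the largest row was kept. Rows that share a name are thereby counted once, but some miRNAs listed under different names, such as bta-miR-339a and bta-miR-339b, have identical counts and enter the totals and tests separately. PCR copies were not removed, and the exact intervals of shares in single libraries cover counting error only. The edgeR intervals also take in the spread between libraries.

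Counts were tested with edgeR 4.0.16 in R 4.3.3 (TMM factors, quasi-likelihood fit on follicle type, Benjamini-Hochberg adjustment over 353 miRNAs). The standard error (SE) was taken as the size of the log2 fold change over the root of the F statistic, and intervals use the t distribution of that fit. Ratios were compared by exact two-sided permutation over 20 arrangements. At 190385 to 364125 reads per library, 3 reads equal 8.86 to 13.9 CPM. The fit was tested on simulated data. Chi-square statistics per degree of freedom between library pairs were at least 18.9, so no pair was a repeat. Deviations from the group means correlated at r = 0.14, 0.38 and 0.41 for libraries numbered 1, 2 and 3 over 194 miRNAs, which are not independent. Differently numbered pairs ranged from -0.42 to 0.19, the highest being dominant 2 with subordinate 1. All same-numbered values were above 0.1, but so were 0.19 for dominant 2 with subordinate 1 and 0.12 for dominant 1 with subordinate 2. These values do not settle whether the numbers pair the samples, so a paired fit was run as an alternative to the unpaired one.

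The members, seed relatives and marker lists were chosen with earlier results of these data known. Named miRNAs are the 7 members, the 8 seed relatives, the markers, the 3 X-linked miRNAs with the most reads and the 5 nearest profiles of bta-miR-424-5p and of bta-miR-450b. Bta-miR-3601 and the called X-linked miRNAs were named after their values were seen. Alternatives were DESeq2 1.42.0, other scalings and filters, summed precursor rows, 0.5 in place of 1 added read, a wider seed family, other thresholds, the paired fit and each library left out. Python 3.11.15, numpy 2.4.6, scipy 1.17.1 and matplotlib 3.10.9 were used.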

Additional observations from a re-analysis of the deposited data

How the results depend on the processing

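The same 5 cluster miRNAs were called, and none as lower, under each alternative fit: DESeq2, median-of-ratios factors, plain totals, no filter, at least 10 reads in at least 3 libraries, summed precursor rows, an FDR of 0.05, no fold threshold, the replicate block and each library left out. With the replicate number as a block, bta-miR-424-5p had a log2 fold change of 2.56 and bta-miR-450b of 1.33. The block changed no call among the cluster miRNAs, while over all miRNAs 38 were called higher and 33 lower, in place of 42 and 34. Neither arm of miR-503 was called in any of the alternative fits, and neither could be fitted with the 10-read filter. Over all alternatives, the log2 fold change ran from 2.32 to 2.91 for bta-miR-424-5p, from 2.49 to 2.98 for bta-miR-424-3p, from 2.15 to 2.88 for bta-miR-542-5p, from 1.63 upwards for bta-miR-450a, from 1.14 to 1.76 for bta-miR-450b, from 0.69 to 1.89 for bta-miR-503-3p and from 0.03 to 1.46 for bta-miR-503-5p. The fold changes were compared by direction and call, the members called by their count, and the ratios and shares by direction only. Some recomputed values could not differ, since pairing leaves a difference in mean ratio or share as it is. Summed precursor rows likewise changed only the ratio to bta-miR-450a among the ratios and shares. Of 175 recomputed values, these included, 171 stayed the same by these measures. The other 4 were ratio differences that turned sign when a library was left out, where the range was -0.40 to 0.38 (0.037 without dominant replicate 2) for the miR-424 arms, -1.21 to 0.24 for the miR-503 arms and -0.095 to 0.45 for bta-miR-424-5p against bta-miR-542-5p. The cause was not tested. With the wider seed family the difference in the share of bta-miR-424-5p was 6.83 instead of 8.60 percentage points. The counts over all miRNAs were less stable than the cluster's: 34 were called lower in all libraries and 22 without dominant replicate 1. Without dominant replicates 1 and 2, a setting chosen after the data were seen, 26 were called higher and 13 lower, in place of 42 and 34. Depth limits the miR-503 arms, which had at most 12 reads in a library.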
